A study of Mus musculus with 4 samples.

Results

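The Wnt ligands followed here were Wnt3, Wnt4, Wnt5a, Wnt6, Wnt7b, Wnt10a, Wnt10b and Wnt11. They were found by gene symbol and were chosen with earlier results of these data known. They are 8 of the 32285 genes listed in the files and 8 of the 19 Wnt ligand genes of the mouse. Single-cell RNA sequencing was done on proximal tissue of lower incisors, dissociated with liberase and depleted of dead cells, from mice at postnatal day 15. There were 2 libraries of WT mice and 2 of Din-KO mice. The Din-KO mice carried an allele of Din (4930453N24Rik) in every cell from which exon 2 was removed and into which a LacZ reporter was placed under the endogenous promoter, so no Cre or cell type limited the deletion. How many mice went into a library was not given in the sources used here, so the spread between libraries may be partly technical. The question was which cells of the incisor hold which ligand, and whether the ligands differed between Din-KO and WT.

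Wnts are secreted glycoproteins that carry a lipid added by Porcn and need Wls to leave the cell. They bind Frizzled receptors. Wnt3, Wnt10a and Wnt10b are best known for signaling through Lrp5 or Lrp6 to beta-catenin, and Wnt5a and Wnt11 for signaling through Ror receptors and planar polarity proteins. Wnt4, Wnt6 and Wnt7b have been placed in either branch, depending on the cell. In teeth, Wnts pass between the enamel-forming epithelium and the mesenchyme that gives rise to dentin, pulp and the follicle around the tooth, and WNT10A is a known gene of tooth number in humans. The mouse incisor grows throughout life, so these exchanges continue in the adult.

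After cells with few genes were left out, 11310 of 20502 barcodes remained, from 1272 to 4575 per library, with 32198098 to 54348039 unique molecular identifiers (UMIs) over all barcodes of a library. Cell classes were built by clustering without the Wnt ligand genes, and each was named "-like" from marker lists. Epithelium-like cells numbered 580, preodontoblast-like cells 345, dental pulp-like cells 3083, dental follicle-like cells 1421 and odontoblast-like cells 228. Pairs of libraries shared 4 to 12 barcodes. Levels are given as CPM (UMIs of the gene, scaled to 1000000 UMIs in the class). The 12 epithelial markers summed to 34975 to 351860 CPM in epithelium-like cells and to 65.6 to 1858 CPM in the 4 mesenchymal classes. Pulp and follicle lists were highest in their own classes. The preodontoblast list overlapped, at 3429 to 6414 CPM in preodontoblast-like and 2353 to 8882 CPM in odontoblast-like cells. The odontoblast list did not, at 133 to 1132 and 10802 to 96871 CPM in that order. Odontoblast-like cells also held the osteoblast list at 4425 to 22245 CPM, and dental follicle-like cells held it at 989 to 2450.5 CPM. Libraries with the same replicate number were alike in depth, and replicates numbered 2 had fewer dental pulp-like cells, 178 in WT and 94 in Din-KO against 1518 and 1293. The counts do not show in which exon the tags of Din lie, and the allele removes exon 2. Din at 33.1 and 24.6 CPM in WT and 17.3 and 21.0 CPM in Din-KO therefore does not check the labels. Cells with UMIs of Y-linked genes made up 0% of both WT libraries and 38.9% and 36.8% of the Din-KO libraries, so the sex of the mice and the genotype cannot be told apart except within cells of one sex.

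Wnt5a was the ligand with the most UMIs in the incisor, at 18214 in the cells kept. It was followed by Wnt6 with 5543, Wnt4 with 5378, Wnt10a with 4986 and Wnt11 with 2212, which were the first 5 of the 19 ligands. Wnt10b with 272 UMIs and Wnt7b with 141 stood at places 10 and 11, and Wnt3 had 10 UMIs in all. These totals count 3′ tags, which do not grow with transcript length, but genes can differ in how well they are captured. The classes held different ligands. Of all UMIs of Wnt4, 67.6% lay in epithelium-like cells, and of those of Wnt11, 80.7% lay in dental follicle-like cells. Wnt5a was spread over the mesenchyme, with 38.2% in dental pulp-like, 22.5% in dental follicle-like and 10.9% in odontoblast-like cells. Wnt6 and Wnt10a were split between the epithelium and the odontoblast lineage.

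**Figure D1:**
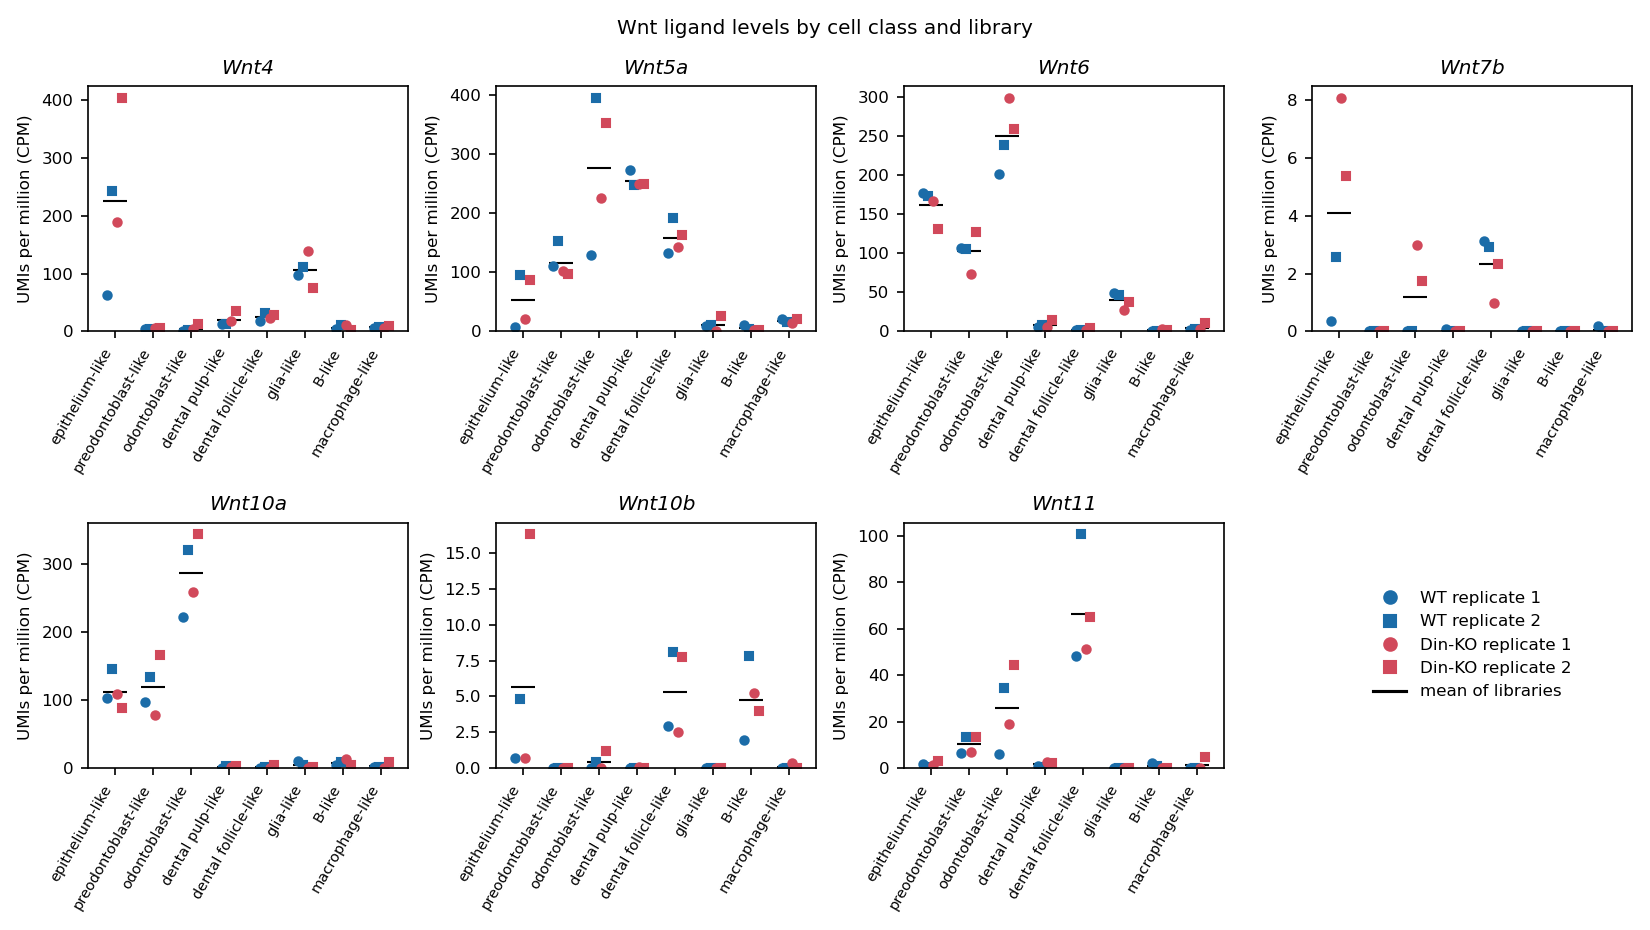
Each panel shows 1 ligand, with its level in CPM on a linear vertical axis that starts at 0 and differs between panels; points are libraries (blue WT, red Din-KO, circles replicate 1, squares replicate 2) and bars are means over libraries. Wnt4 sits highest in epithelium-like cells, Wnt11 in dental follicle-like cells, Wnt5a in dental pulp-like and odontoblast-like cells, and Wnt6 and Wnt10a in odontoblast-like, preodontoblast-like and epithelium-like cells.

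The genes lie on 6 chromosomes of GRCm38. Wnt6 (ENSMUSG00000033227, chr1:74771892-74785322, plus strand) and Wnt10a (ENSMUSG00000026167, chr1:74791516-74804179, plus strand) are neighbours with 6193 bases between them. Wnt4 (ENSMUSG00000036856) lies at chr4:137277489-137299726 and Wnt11 (ENSMUSG00000015957) at chr7:98835112-98855195, both on the plus strand. Wnt3 (ENSMUSG00000000125, chr11:103774150-103817957) and Wnt5a (ENSMUSG00000021994, chr14:28504750-28527448) are also on the plus strand, and Wnt7b (ENSMUSG00000022382, chr15:85535437-85582473) and Wnt10b (ENSMUSG00000022996, chr15:98770712-98778150) on the minus strand. The sequences just before the starts of Wnt6 and Wnt11 are shown because these ligands mark opposite sides of the tooth in the values that follow, the epithelium and dentin lineage against the follicle, and that of Wnt10b because it was sparse in every class. Each is the 250 bases before the gene's start in RefSeq (GRCm38.p6), 5′ to 3′, at chr1:74771642-74771891 for Wnt6, chr7:98834862-98835111 for Wnt11 and chr15:98778151-98778400, minus strand, for Wnt10b. Capitals mark a GC box (GGGCGG) or a TCF/LEF core (CTTTGA) on either strand; overlapping matches run together.
Wnt6: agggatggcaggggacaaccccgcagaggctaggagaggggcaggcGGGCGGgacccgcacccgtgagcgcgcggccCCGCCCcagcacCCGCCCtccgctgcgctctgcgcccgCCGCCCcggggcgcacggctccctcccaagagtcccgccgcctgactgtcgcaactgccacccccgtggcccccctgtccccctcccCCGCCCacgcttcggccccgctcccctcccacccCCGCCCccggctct
Wnt11: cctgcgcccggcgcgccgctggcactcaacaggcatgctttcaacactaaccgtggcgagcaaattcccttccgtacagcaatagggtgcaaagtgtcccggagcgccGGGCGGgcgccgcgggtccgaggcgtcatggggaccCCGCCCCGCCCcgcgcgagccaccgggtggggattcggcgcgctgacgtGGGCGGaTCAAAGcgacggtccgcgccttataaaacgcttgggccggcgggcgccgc
Wnt10b: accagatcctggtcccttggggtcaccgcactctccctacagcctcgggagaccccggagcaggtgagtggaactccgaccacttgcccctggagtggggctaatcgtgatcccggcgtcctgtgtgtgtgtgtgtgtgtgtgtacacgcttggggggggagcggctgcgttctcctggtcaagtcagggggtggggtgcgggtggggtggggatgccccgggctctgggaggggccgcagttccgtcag
The Wnt6 window holds 6 GC boxes and no TCF/LEF core, the Wnt11 window 4 GC boxes and 1 TCF/LEF core, and the Wnt10b window neither motif. Their GC contents are 79.6%, 70.8% and 66.8%, against a median of 52.4% over the 32851 promoters of the table. Of those promoters, 32.7% hold the GC box and 13.8% the TCF/LEF core. A match is a string of letters, not a shown binding site. Wnt11 has a second RefSeq start whose 250 bases, at chr7:98838595-98838844, hold neither motif. The windows of Wnt3, with 2 GC boxes, and Wnt4, with 8, hold no TCF/LEF core. They overlap the gene starts given above and are not shown.

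Wnt6 was shared by the epithelium and the odontoblast lineage and low in pulp and follicle. In epithelium-like cells its levels were 177, 174, 166 and 131 CPM in WT replicates 1 and 2 and Din-KO replicates 1 and 2. In preodontoblast-like cells, in the same order, it stood at 107, 106, 73.3 and 127 CPM. Odontoblast-like cells had 202, 238, 299 and 259 CPM, which were above every epithelial library. Dental pulp-like cells had 5.96, 8.55, 6.12 and 15.0 CPM and dental follicle-like cells 1.76, 2.23, 1.94 and 3.88 CPM, so that no library of these classes came near the first 3. Wnt6 was 1.88-fold higher in epithelium-like than in preodontoblast-like cells (log2 fold 0.91 ± 0.19 (SE), edgeR adjusted p = 0.00168, 4 of 4 libraries), 28.4-fold higher than in dental pulp-like cells (4.83 ± 0.24, edgeR adjusted p = 1.14e-09) and 88.0-fold higher than in dental follicle-like cells (6.46 ± 0.26, edgeR adjusted p = 1.83e-10). Pulp and follicle also differed, with the pulp higher (1.63 ± 0.30, edgeR adjusted p = 0.000570), at levels at which few cells held the transcript. On the mean of 4 libraries, a UMI of Wnt6 was found in 6.23% of dental pulp-like and 3.05% of dental follicle-like cells. Macrophage-like cells, taken here as a class without it, had a share of 3.50%. Their median depth of 8938 to 10597 UMIs per library lies near that of pulp (7423 to 9766). With each cell thinned to 2000 UMIs the shares were 2.08%, 0.857% and 0.831% in pulp, follicle and macrophage-like cells. The follicle share was thus at the level of macrophage-like cells and is not read as expression. The folds of Wnt6 over the follicle are therefore ratios to that level. Whether that level comes from free RNA in droplets was not tested. Epithelium-like cells had a share of 67.1% (20.8% thinned) and odontoblast-like cells of 90.0% (38.0% thinned).

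Wnt10a followed the same classes except that the preodontoblast and the epithelium overlapped. Odontoblast-like cells had 223, 321, 260 and 345 CPM in WT replicates 1 and 2 and Din-KO replicates 1 and 2. Preodontoblast-like cells had 96.5, 134, 78.4 and 166 CPM and epithelium-like cells 103, 146, 109 and 88.0 CPM, and these ranges overlapped. The fitted difference of epithelium over preodontoblast was 0.21 ± 0.29 on the log2 scale (edgeR adjusted p = 0.600), and it was called higher in the epithelium when classes were built at a resolution of 0.5 or without integrating the libraries. In dental pulp-like cells Wnt10a stood at 0.66 to 3.52 CPM and in dental follicle-like cells at 0.20 to 4.50 CPM, and the epithelium was 103.7-fold (6.70 ± 0.43, edgeR adjusted p = 1.61e-08) and 84.1-fold (6.39 ± 0.40, edgeR adjusted p = 1.01e-08) above them. The preodontoblast was 89.8-fold above the pulp (6.49 ± 0.44, edgeR adjusted p = 2.62e-07) and 72.8-fold above the follicle (6.19 ± 0.40, edgeR adjusted p = 4.94e-08). The shares of cells with a UMI were 2.12% in pulp and 2.46% in follicle, with 1.30% of macrophage-like cells. They were 60.5% in preodontoblast-like and 89.5% in odontoblast-like cells. With each cell thinned as for Wnt6, the shares were 0.207% in pulp, 0.306% in follicle and 0.397% in macrophage-like cells. The pulp and follicle shares were thus no higher than that of macrophage-like cells and are not read as expression. The folds over pulp and follicle are therefore ratios to that level, whose source was not tested. Thinned shares were 23.1% in preodontoblast-like and 39.7% in odontoblast-like cells.

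Wnt6 and Wnt10a were the pair of ligands most alike over the tissue. Over 50 sums of a class in a library with at least 20 cells, from 14 classes, the Pearson correlation of log2(CPM + 1) was 0.856, the highest of the 21 pairs of 7 ligands, and the next was Wnt5a with Wnt11 at 0.663. The sums of one library share its depth and its free RNA, so this is a description. Glia-like cells went another way, with Wnt6 at 49.0, 46.0, 27.8 and 37.8 CPM and Wnt10a on 3 UMIs in all. The WT glia-like sums, of 14 and 15 cells, were too small to be among the 50. Both ligands were also met in the same cells. Of epithelium-like cells with a Wnt6 UMI, 60%, 89.2%, 63.6% and 75.3% also had one of Wnt10a in WT replicates 1 and 2 and Din-KO replicates 1 and 2, against 45.5%, 68.0%, 51.1% and 58.5% of all epithelium-like cells. In odontoblast-like cells 90.0%, 100%, 93.0% and 98.3% of Wnt6-positive cells held Wnt10a, against 77.1%, 95.4%, 88.9% and 96.8% of all odontoblast-like cells, so the shared detection was little above the share in the class. Deep cells hold a UMI of any gene more often, and how much of the shared detection comes from depth was not tested.

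**Figure D2:**
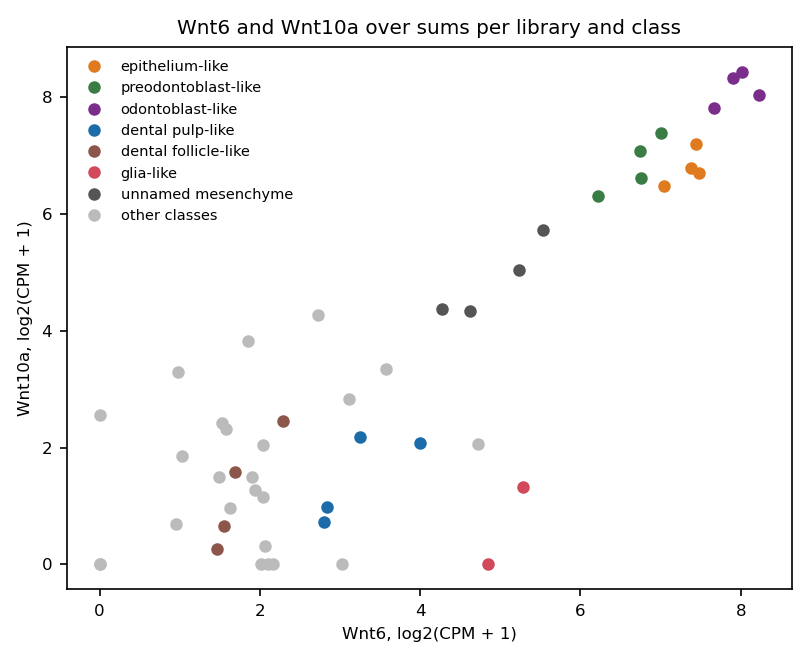
Each point is the sum of 1 class in 1 library with at least 20 cells (50 points), with the level of Wnt6 on the horizontal and of Wnt10a on the vertical axis, both as log2(CPM + 1). Odontoblast-like, preodontoblast-like and epithelium-like sums are high in both ligands, while the glia-like sums hold Wnt6 with little Wnt10a.

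Among the source classes Wnt4 was highest in the epithelium, though in WT replicate 1 Wnt6 (177 CPM) and Wnt10a (103 CPM) exceeded it there. Wnt4 stood at 62.4, 244, 190 and 404 CPM in epithelium-like cells of WT replicates 1 and 2 and Din-KO replicates 1 and 2. This was the widest relative spread between libraries among the 5 abundant ligands in the class where they were highest. All 4 values lay above those of the other source classes. Dental follicle-like cells had 17.8, 32.3, 23.3 and 28.9 CPM, dental pulp-like cells 12.9, 13.6, 18.1 and 35.3 CPM, and preodontoblast-like cells 3.56 to 6.76 CPM. Epithelium-like cells were 45.4-fold above preodontoblast-like (5.50 ± 0.42, edgeR adjusted p = 1.65e-07), 13.7-fold above dental pulp-like (3.78 ± 0.33, edgeR adjusted p = 3.73e-07) and 10.4-fold above dental follicle-like cells (3.38 ± 0.32, edgeR adjusted p = 6.98e-07). Preodontoblast-like cells were 4.36-fold below the follicle (edgeR adjusted p = 0.00212) and 3.31-fold below the pulp (edgeR adjusted p = 0.0119), the second of which was no longer called without either Din-KO library (edgeR adjusted p = 0.0532 without replicate 1 and 0.0588 without replicate 2). The share of cells with a Wnt4 UMI, thinned as for Wnt6, was 1.12% in preodontoblast-like and 1.09% in macrophage-like cells. The preodontoblast share was thus at the level of macrophage-like cells and is not read as expression. The folds of the other classes against preodontoblast-like cells are therefore ratios to that level, whose source was not tested. Pulp and follicle were not called different (−0.40 ± 0.33, edgeR adjusted p = 0.379). A second site of Wnt4 lay outside the source classes, in glia-like cells with 97.9, 111, 139 and 75.7 CPM, a range that overlapped that of the epithelium. These values rest on 114 UMIs in 14, 15, 20 and 45 cells.

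The epithelial level of Wnt4 differed between the clusters of the epithelium. Cluster 12, with Shh and Epcam, a signal and an adhesion protein of the epithelium, among its leading genes, held 332 cells and cluster 16, led by the enamel matrix genes Enam, Amelx and Amtn, held 248. In cluster 12 Wnt4 stood at 36.2, 293, 166 and 690 CPM, and in cluster 16 at 139, 236, 218 and 211 CPM. The spread between libraries was thus in the cluster without the enamel genes. The makeup of the class also moved between libraries, since cluster 12 made up 84.1% of epithelium-like cells in WT replicate 1, 27.0% in WT replicate 2, and 68.5% and 40.7% in the corresponding Din-KO libraries. Wnt6 and Wnt10a were higher in cluster 16 in both replicates numbered 1 (Wnt6 457 against 81.4 CPM in WT and 243 against 101 in Din-KO) and higher in cluster 12 in WT replicate 2 (Wnt6 327 against 150 CPM), so no single order of the clusters holds for them. Within the named pulp class, 351 of the 418 Wnt4 UMIs lay in cluster 0, led by Cldn10, Ifitm1 and Syt6. Wnt4 stood there at 22.3, 30.1, 42.3 and 80.7 CPM, against 2.38 to 10.0 CPM in cluster 1 and 4.38 to 9.77 CPM in cluster 7. Cluster 14 (Pdlim3, Ltbp1, Dmkn), nearest to the pulp list but left unnamed, held more than cluster 0 in both replicates numbered 1. Wnt4 was at 81.3 CPM there in WT and 74.5 CPM in Din-KO.

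Wnt5a was held mainly by the mesenchyme, and in the pulp no other of the 8 exceeded 35.3 CPM in any library. Dental pulp-like cells had 273, 247, 250 and 249 CPM in WT replicates 1 and 2 and Din-KO replicates 1 and 2, the narrowest relative spread of the 5 abundant ligands over the 4 source classes. Dental follicle-like cells had 133, 192, 142 and 163 CPM and preodontoblast-like cells 110, 152, 102 and 97.7 CPM. Epithelium-like cells had 7.80, 94.9, 20.5 and 87.8 CPM, below the mesenchymal classes of their own library in every library. The pulp lay above the follicle and above the preodontoblast in 4 of 4 libraries, without overlap of the ranges. Neither difference passed the test (0.74 ± 0.46, edgeR adjusted p = 0.231, and 1.03 ± 0.48, edgeR adjusted p = 0.110). The fit takes a single spread per gene over all source classes, so the SE also holds the wide epithelial spread. It does not measure the spread of these classes alone. The epithelium was 4.03-fold below the pulp (−2.01 ± 0.50, edgeR adjusted p = 0.00365) and 2.41-fold below the follicle (−1.27 ± 0.49, edgeR adjusted p = 0.0409), the second of which was lost without WT replicate 1 (edgeR adjusted p = 0.0920), without Din-KO replicate 1 (edgeR adjusted p = 0.213) and in cells with Xist UMIs alone (edgeR adjusted p = 0.0591). Against the preodontoblast the epithelial difference was −0.98 ± 0.50 (edgeR adjusted p = 0.136).

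Within the odontoblast-like cells Wnt5a separated the clusters. Cluster 24, led by Bglap, had 483 to 506 CPM in the 3 libraries with at least 10 of its cells, and cluster 27, led by Dmp1, Ifitm5 and Sost, 109 to 147 CPM. The 2 ranges did not overlap. Pulp cluster 0 held 315 to 377 CPM, cluster 7 (Cnmd, Gpha2) 252 to 293 CPM and cluster 1 (Vcan, Grik1) 155 to 198 CPM. In the enamel-gene cluster of the epithelium, Wnt5a was at 1.39 and 5.70 CPM in the replicates numbered 1 and at 98.9 and 125 CPM in those numbered 2 of WT and Din-KO. The 7 markers shared by the mesenchyme, all detected in each library, summed to 526, 640, 424 and 1033 CPM in the epithelium-like cells of WT replicates 1 and 2 and Din-KO replicates 1 and 2. They were thus also higher in the replicates numbered 2, and their part in the Wnt5a values was not tested.

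**Figure D3:**
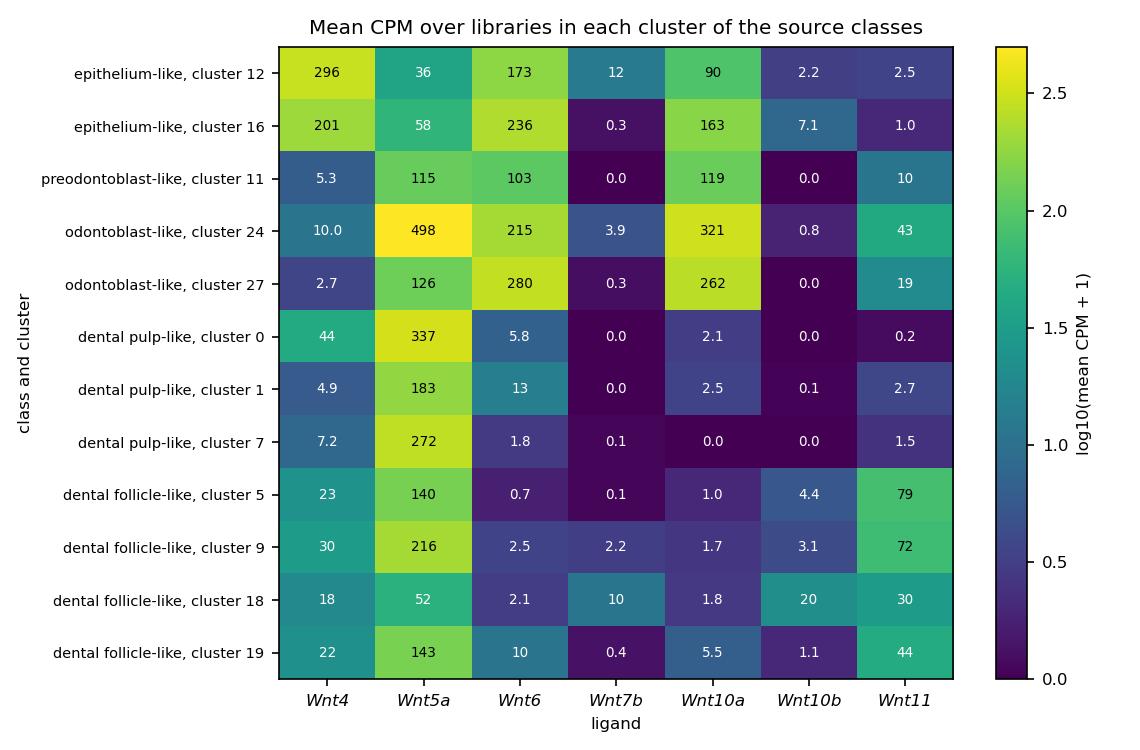
Each row is a cluster with its class, each column a ligand, and each cell the mean CPM over libraries with at least 10 cells of that cluster, printed and colored as log10(mean CPM + 1). Wnt5a reaches 498 CPM in odontoblast-like cluster 24, Wnt11 is highest in follicle clusters 5 and 9, and Wnt10b and Wnt7b stand at 20 and 10 CPM in follicle cluster 18.

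Wnt11 was highest in the follicle, though below Wnt5a there. Dental follicle-like cells had 48.2, 101, 51.1 and 65.0 CPM in WT replicates 1 and 2 and Din-KO replicates 1 and 2, above every library of every other class. Odontoblast-like cells came next with 6.19, 34.3, 18.8 and 44.2 CPM and then preodontoblast-like cells with 6.48, 13.5, 6.96 and 13.5 CPM. Pulp and epithelium were at 0.50 to 2.67 and 0.57 to 2.91 CPM, on 43 and 25 UMIs. The follicle was 30.0-fold above the epithelium (log2 fold of epithelium over follicle −4.91 ± 0.35, edgeR adjusted p = 3.55e-08), 33.7-fold above the pulp (−5.08 ± 0.33, edgeR adjusted p = 5.79e-08) and 5.91-fold above the preodontoblast (−2.56 ± 0.30, edgeR adjusted p = 1.16e-05). The preodontoblast was in turn above the pulp (2.51 ± 0.42, edgeR adjusted p = 0.000419) and the epithelium (−2.34 ± 0.45 for epithelium over preodontoblast, edgeR adjusted p = 0.000807). The share of cells with a Wnt11 UMI, thinned as for Wnt6, was 0.127% in pulp and 0.291% in macrophage-like cells. The pulp share is thus not read as expression, and the folds over pulp are ratios to that level, whose source was not tested. Among follicle clusters, Wnt11 stood at 50.7 to 115 CPM in cluster 5 (Sfrp2, Pcp4) and 58.0 to 106 CPM in cluster 9 (Bmp3, Dkk2, Fibin), and at 11.3 to 51.1 CPM in cluster 18 (Spp1, Mmp13, Ibsp), which reads as bone matrix and protease genes.

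Wnt10b and Wnt7b were sparse and were found in both epithelium-like and dental follicle-like cells. Within the follicle-like class their mean levels were highest in cluster 18, led by Spp1, Mmp13 and Ibsp. Wnt10b stood at 2.94, 8.10, 2.52 and 7.76 CPM in dental follicle-like cells and at 0.71, 4.85, 0.71 and 16.3 CPM in epithelium-like cells of WT replicates 1 and 2 and Din-KO replicates 1 and 2, and these ranges overlapped (0.08 ± 0.54, edgeR adjusted p = 0.918). Wnt7b stood at 0.35, 2.57, 8.10 and 5.37 CPM in the epithelium and 3.13, 2.94, 0.97 and 2.33 CPM in the follicle (1.11 ± 0.64, edgeR adjusted p = 0.171). Preodontoblast-like cells held 0 UMIs of either. With the 3 UMIs that a count of 0 allows over the pooled class, Wnt10b was at least 13.9-fold higher in the epithelium and at least 12.8-fold higher in the follicle than in preodontoblast-like cells, and Wnt7b at least 9.94-fold and at least 5.30-fold. Single libraries carried much of these bounds. Without Din-KO replicate 2, which held 73 of the 95 epithelial Wnt10b UMIs, the bound for Wnt10b in the epithelium was 3.45, without WT replicate 2 that in the follicle was 8.05, and without Din-KO replicate 1 that for Wnt7b in the epithelium was 4.64. The pulp held 1 UMI of each, which puts the pooled ratio of follicle to pulp at 155 for Wnt10b (exact 95% interval 27.4 to 6174, counting error only) and 64.4 for Wnt7b (11.1 to 2586). Without WT replicate 1 the ratio for Wnt10b was 85.6, and without the library that held the 1 pulp UMI only a bound is left, at least 36.8-fold for Wnt10b (without Din-KO replicate 1) and at least 9.73-fold for Wnt7b (without WT replicate 1). The follicle means also fell when classes were built otherwise. Wnt7b went from 2.34 CPM to 1.03 at a resolution of 0.5 and 1.22 without integration. Wnt10b went from 5.33 CPM to 3.42 and 3.44. The follicle class then held 1221 and 974 cells rather than 1421. At a resolution of 0.5 it held 248 and 383 cells in WT replicates 1 and 2, against 330 and 423. In Din-KO it held 320 and 270, against 363 and 305. Cluster 18 held 83, 40, 42 and 35 cells in the same order of libraries, close to the numbers lost. Which cells left the class was not tested in either setting. Inside the classes the 2 ligands were concentrated. Of the 68 epithelial Wnt7b UMIs, 65 lay in cluster 12, and of the 61 follicle UMIs, 34 lay in cluster 18. Cluster 18, the follicle-like cluster led by bone matrix and protease genes, also had the highest Wnt10b of the follicle clusters at 7.74 to 29.5 CPM. B-like cells, a class of the marrow or blood, also held Wnt10b, at 1.94, 7.83, 5.24 and 3.97 CPM on 14 UMIs. Wnt3 had 4 UMIs in epithelium-like, 4 in dental pulp-like and 2 in unnamed mesenchyme cells and entered no test.

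The class comparisons were made in one fit. It took the 16 sums of 4 classes in 4 libraries, with the library as a term, and tested 12916 genes, among them 7 of the 8 ligands (all but Wnt3). Wnt7b and Wnt10b held 0 UMIs in preodontoblast-like and 1 UMI each in dental pulp-like cells. They thus passed the filter on low counts only through the epithelium and the follicle. Their calls against preodontoblast and pulp follow from that filter and are not read as results, though the counts and medians below include them. The classes came from the same cells, so their genes at large differ by construction, and the ligands were kept out of the clustering. Between epithelium and preodontoblast 4 ligands were higher in the epithelium (Wnt4, Wnt6, Wnt7b and Wnt10b; 20.5% of all genes were called higher) and 1 lower (Wnt11; 19.6% of all genes). Between epithelium and pulp 5 were higher (Wnt4, Wnt6, Wnt7b, Wnt10a and Wnt10b) and 1 lower (Wnt5a), with 27.7% of all genes higher and 25.4% lower. Against the follicle 3 were higher in the epithelium (Wnt4, Wnt6 and Wnt10a) and 2 lower (Wnt5a and Wnt11), with 25.6% of all genes higher and 26.0% lower. Preodontoblast-like cells had 3 ligands higher than pulp (Wnt6, Wnt10a and Wnt11) and 1 lower (Wnt4), with 17.7% of all genes higher and 17.2% lower. They had 2 higher (Wnt6 and Wnt10a) and 4 lower than the follicle (Wnt4, Wnt7b, Wnt10b and Wnt11), with 18.2% of all genes higher and 20.2% lower. Pulp had 1 ligand above the follicle (Wnt6) and 3 below (Wnt7b, Wnt10b and Wnt11), with 16.4% of all genes higher and 19.3% lower. The median log2 fold of the 7 ligands was 4.83 for epithelium over pulp and −2.12 for preodontoblast over follicle, with medians of 0.03 and −0.01 over all genes. Since both medians include Wnt7b and Wnt10b, they are not read as a shift of the ligands as a set. The −2.12 is the value of Wnt4, whose preodontoblast level is not read as expression.

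**Figure D4:**
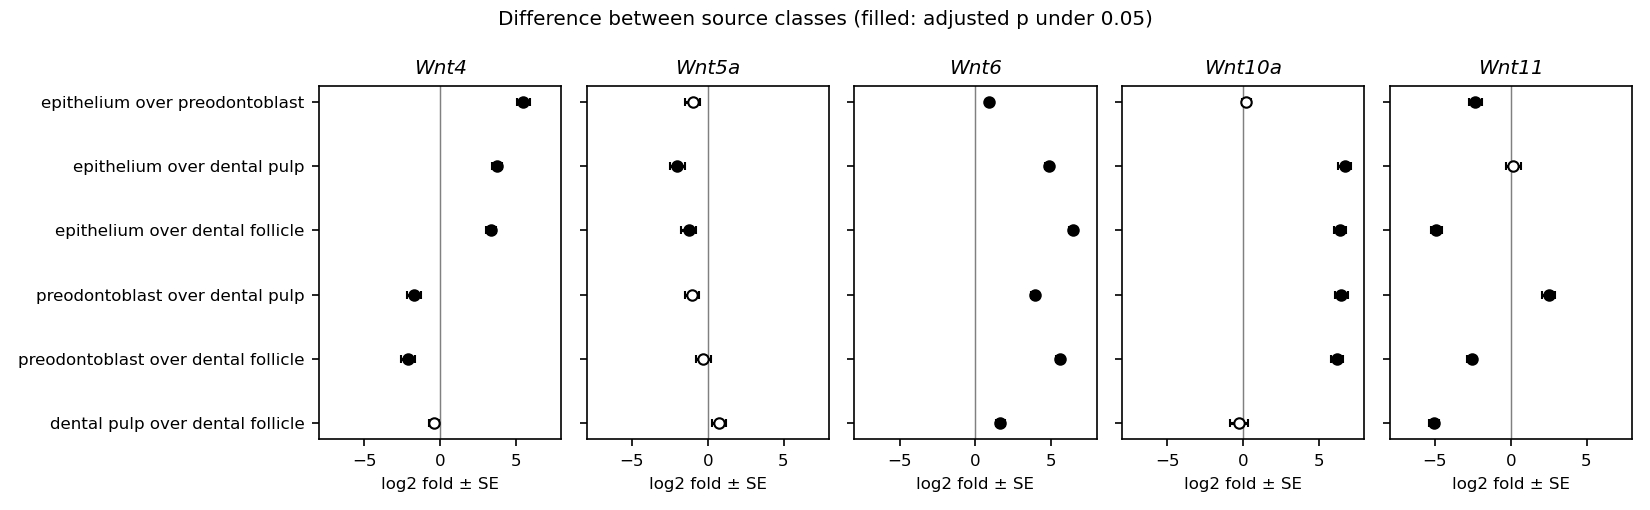
Each panel shows 1 of the 5 abundant ligands, with the log2 fold between 2 source classes on the horizontal axis, bars of 1 SE, and filled points where the edgeR adjusted p was under 0.05. Wnt6 and Wnt10a lie to the right in 4 of 6 contrasts each by more than 3, Wnt11 lies to the left against the follicle, and Wnt5a is called only for epithelium against pulp and against follicle.

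Clusters of mesenchyme that matched no single marker list were left unnamed, and they made up 17.5% and 6.47% of the kept cells in WT and 25.8% and 9.36% in Din-KO replicates 1 and 2. They held 3002 Wnt5a UMIs at 94.5 to 160 CPM, 503 of Wnt6 at 18.3 to 45.3 CPM and 490 of Wnt10a at 19.2 to 52.1 CPM, so Wnt6 and Wnt10a lay between the pulp and the preodontoblast there. Wnt4 had 264 UMIs there at 8.27 to 13.4 CPM, of which 72 and 80 lay in cluster 14 of WT and Din-KO replicates 1. Adding the unnamed clusters nearest to the pulp list to the pulp left the number of ligands called within 1.5 times in every comparison.

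Din-KO and WT libraries were compared within each class, which asked whether loss of Din goes with a change of the ligands. No ligand passed the test in any class, and no other gene did. For edgeR with Benjamini-Hochberg adjustment the calls were 0 of 11501 genes in epithelium-like, 0 of 9603 in preodontoblast-like, 0 of 12584 in dental pulp-like and 0 of 12976 in dental follicle-like cells (0.0% each), with 147, 187, 152 and 291 genes at an unadjusted p under 0.05. DESeq2 called 6, 2, 7 and 42 genes, none of them a ligand. With 2 libraries a group, the smallest two-sided p of an exact permutation test is 0.333. In simulated counts with 200 genes of above-median level changed 2-fold, edgeR recovered 0%, 0.5%, 4.5% and 2% in the same order of classes. At 4-fold it recovered 0%, 91%, 91.5% and 95.5%. A 2-fold change in any class, or a 4-fold change in the epithelium, could thus be missed. The recovery at 4-fold was not shown for ligands at low levels, such as Wnt10a in the pulp (log2 fold −0.05 ± 1.12). The ligands tested were 6, 4, 5 and 7, and 1 of these 22 values had an unadjusted p under 0.05, Wnt4 in the pulp.

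Dental pulp-like cells held Wnt4 at 12.9 and 13.6 CPM in WT and 18.1 and 35.3 CPM in Din-KO, groups that did not overlap (log2 fold 0.89 ± 0.35, edgeR unadjusted p = 0.0372, adjusted p = 1). Of all genes tested in the pulp, 8.96% had Din-KO above WT in every pair of libraries. Cluster 0, with most Wnt4 of the named pulp class, made up a smaller share of it in Din-KO (36.4% and 28.7%, against 49.9% and 42.7%). Within cluster 0 the level was 42.3 and 80.7 CPM against 22.3 and 30.1 CPM. Unnamed cluster 14, nearest to the pulp list, was not higher in Din-KO, at 74.5 CPM against 81.3 CPM in replicates 1. It had only 9 and 7 cells in Din-KO and WT replicates 2. In cells with at least 3 Xist UMIs and none of the Y-linked genes the log2 fold was 0.87. Wnt11 in the pulp also lay above WT in both Din-KO libraries, at 2.67 and 2.14 CPM against 0.96 and 0.50 CPM (1.56 ± 0.75), on 43 UMIs. In replicates 2 it was met in 1 of 178 WT and 2 of 94 Din-KO cells. The thinned share was 0.127% in pulp and 0.291% in macrophage-like cells, so this difference is not read as a change of expression.

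In the epithelium, Wnt7b was higher in both Din-KO libraries, at 8.10 and 5.37 CPM against 0.35 and 2.57 CPM (1.86 ± 0.98), where 17.6% of all genes had Din-KO above WT without overlap, and Wnt6 was lower, at 166 and 131 against 177 and 174 CPM (−0.41 ± 0.32), where 3.27% had it below. In the preodontoblast, Wnt5a lay at 102 and 97.7 CPM in Din-KO against 110 and 152 CPM in WT (−0.37 ± 0.27), with 13.6% of genes below without overlap. In the follicle, Wnt7b lay at 0.97 and 2.33 CPM against 3.13 and 2.94 CPM (−0.91 ± 0.60), with 8.34% of genes below. None of these passed the test. The large epithelial spread of Wnt4 left its genotype difference wide, at 0.66 ± 0.88. The SE was smaller for Wnt5a in the pulp, where the difference was −0.06 ± 0.24. Whether the Din-KO effect differed between classes was tested directly, and 0 of 12916 genes were called for the epithelium, the preodontoblast or the follicle against the pulp (0.0% each), with 393, 221 and 159 at an unadjusted p under 0.05 and with 0, 0 and 1 called by DESeq2. Among the ligands the only one with an unadjusted p under 0.05 was Wnt11 for follicle against pulp (−1.81 ± 0.62, edgeR unadjusted p = 0.0144, adjusted p = 1). The pulp side of that difference is not read as expression, for the reason given above.

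**Figure D5:**
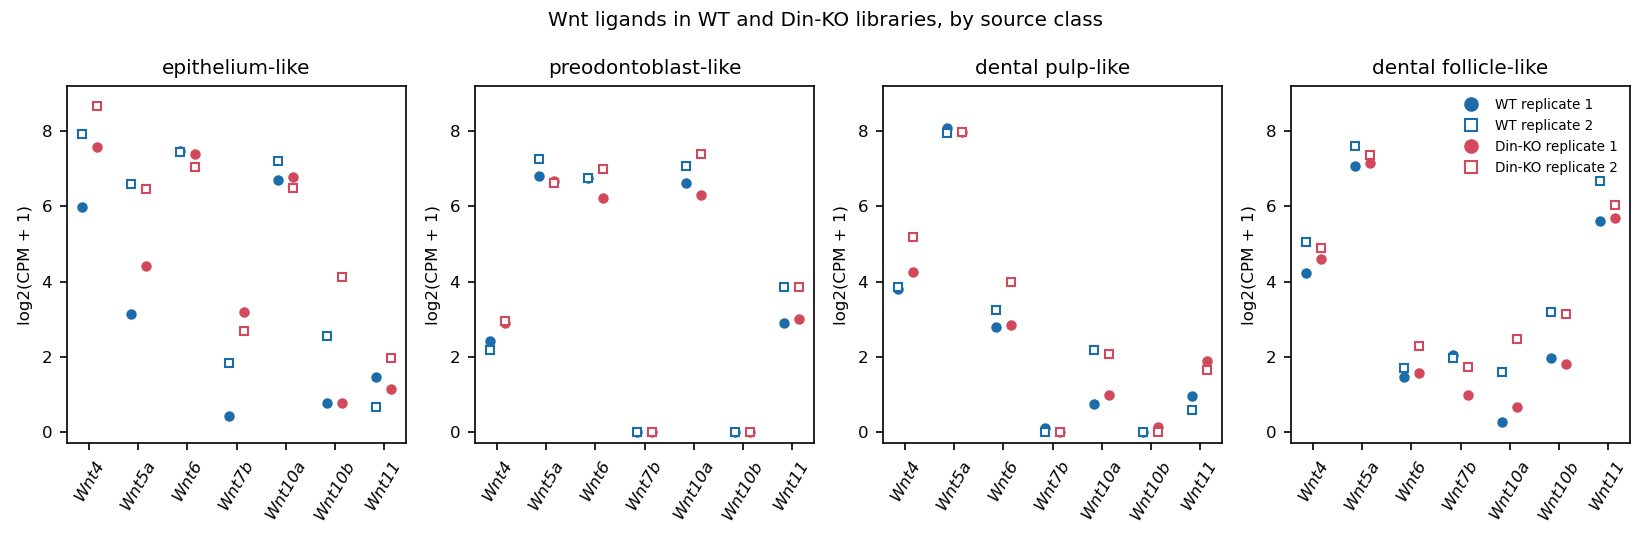
Each panel is a source class, with the ligands on the horizontal axis and log2(CPM + 1) on the vertical axis; blue points are WT and red points Din-KO libraries, filled for replicate 1 and open for replicate 2. In most ligands and classes the WT and Din-KO libraries overlap, and in the pulp both Din-KO libraries lie above WT for Wnt4 (18.1 and 35.3 against 12.9 and 13.6 CPM).

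The other genes of the pathway were counted over lists chosen by function. Wls, the carrier of Wnts to the cell surface, was highest in the pulp, with 420 to 730 CPM against 153 to 214 CPM in the follicle (log2 fold 1.59 ± 0.11, edgeR adjusted p = 7.60e-08) and 132 to 336 CPM in the epithelium (−0.94 ± 0.11 for epithelium over pulp, edgeR adjusted p = 4.11e-06). Of the 11 other Wnt ligands 4 were tested. Wnt7a and Wnt3a were held by the epithelium, with 98.0% and 97.2% of their UMIs there, and Wnt9a by the follicle with 76.1%. Wnt5b, with 1484 UMIs the most of the 11, was spread. Of its UMIs 31.7% lay in dental follicle-like, 16.6% in dental pulp-like and 13.4% in unnamed mesenchyme cells. Of 14 receptors tested, 5 were higher and 2 lower in epithelium than in preodontoblast (20.5% and 19.6% of all genes), and 3 higher and 4 lower in pulp than in follicle (16.4% and 19.3% of all genes), counts that lie near those shares and are not read as a result about receptors. The leading member between pulp and follicle was Fzd1 with 9.12 to 39.6 against 84.8 to 213 CPM. Of 8 planar polarity genes tested, 6 were higher and 1 lower in epithelium than in preodontoblast, where 20.5% of all genes were higher and 19.6% lower, led by the cadherin Celsr2 at 74.8 to 128 against 0.46 to 1.84 CPM.

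Common targets of beta-catenin differed by class as well. In preodontoblast-like cells 8 of 9 targets tested were higher than in the pulp and 0 lower (17.7% and 17.2% of all genes). Their median log2 fold was 2.84, against −0.02 over all genes. Notum, a secreted enzyme that removes the lipid of Wnts, led them. It stood at 257 to 530 against 1.68 to 9.55 CPM (6.78 ± 0.38, edgeR adjusted p = 1.05e-07). Epithelium-like cells, which held Wnt6 and Wnt10a as preodontoblast-like cells did, had 3 of 9 targets higher and 1 lower than the pulp. There 27.7% of all genes were higher and 25.4% lower, and the median of the targets was 0.40. Whether the targets go with these ligands was not tested. In epithelium-like cells 2 of 9 were higher and 6 lower than in the preodontoblast (20.5% and 19.6% of all genes; median −2.31), and in pulp 0 were higher and 7 lower than in the follicle (16.4% and 19.3% of all genes; median −1.96). Notum also leads the preodontoblast cluster, so its own difference there is no independent result. Of 9 secreted antagonists tested, 8 were lower and 1 higher in pulp than in follicle (19.3% and 16.4% of all genes), and 7 were lower and 0 higher in epithelium than in follicle (26.0% and 25.6% of all genes). The leading member in both was Sfrp4 at 106 to 262 CPM in the follicle against at most 2.84 CPM. Sfrp2, Dkk2 and Sfrp4 are among the leading genes of follicle clusters 5, 9 and 18, so their differences are partly built into the classes and are no independent result. The stress genes of dissociation also moved between classes, with 7 of 9 lower and 1 higher in epithelium than in pulp (25.4% and 27.7% of all genes). No list member was called between Din-KO and WT by edgeR in any class.

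The genes whose levels were most like each ligand were sought among 15018 genes over the same 50 sums, by Pearson correlation of log2(CPM + 1), as a description. For Wnt5a they included Cdh11 (0.916) and Alpl (0.908), a cadherin and a phosphatase of mineralizing cells. For Wnt11 they were Itga11 (0.897), Ltbp2 (0.891) and Dipk1c (0.871). Wnt6 and Wnt10a shared Sp6, a transcription factor needed for teeth (0.872 and 0.860), and Tubb3 (0.856 and 0.882), and Wnt10a was also like Bmp8a (0.890). For Wnt4 they were Wnk2 (0.819), Kcnk1 (0.817) and Lgi2 (0.755), for Wnt7b Slc24a2 (0.821), Duoxa1 (0.784) and Gng4 (0.779), and for Wnt10b Eya1 (0.714), Dusp10 (0.677) and Zfp185 (0.644). Of the 7 ligands, Wnt10b had the lowest values. All sums of a library share its depth.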

How the data were processed

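Single-cell libraries of proximal incisor tissue were made with the 10x 3′ kit. Matrices of UMI counts, without normalization, were deposited by the authors after Cell Ranger had aligned reads to mm10 (GRCm38). Column totals were 32198098 to 54348039 UMIs per library. Intervals and floors reflect counting error alone, and no correction for free RNA was made.

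Barcodes were kept that had 1000 or more genes and no more than 10% of UMIs from mitochondrial and 3% from hemoglobin genes. Cells were integrated and clustered in Seurat 5.3.0 (30 components, resolution 1) without Wnt ligand genes, which gave 33 clusters, of which 27 were named from marker lists. The rule for scoring them was chosen after seeing the data. Scrublet in scanpy 1.11.5 marked 0.513% to 2.64% of cells per library. Doublets were not removed, and leaving out the 5% of cells with the highest scores was an alternative. UMIs were summed per library and class (at least 10 cells) and tested with edgeR 4.0.16 (TMM, filterByExpr, quasi-likelihood test, Benjamini-Hochberg over all genes tested, threshold 0.05). The fit between classes had the library as a term, and the fit between genotypes no covariate. DESeq2 1.42.0 was an alternative. ± is the SE. The scripts were tested on simulated data. Coordinates came from GENCODE for GRCm38 and upstream sequences from RefSeq, in which starts of Wnt5a, Wnt7b and Wnt10a were not matched.

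The ligands, gene lists and tests were chosen with earlier results of these data known. Named beside the ligands were the 3 genes most like each ligand with at least 100 UMIs (some names are not reported here), and the member of a list with the largest fold in a contrast. Wls, Wnt3a, Wnt5b, Wnt7a and Wnt9a were in some contrasts named after their values were seen. Samples were grouped by the genotype in their labels.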

Additional observations from a re-analysis of the deposited data

Results flagged for a closer look

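Wnt5a in dental pulp-like cells had 1 library apart from the other three: WT replicate 1 stood at 273 CPM and the others at 247, 249 and 250 CPM, a gap of 0.891 of the range. Of 24 sets of 4 libraries tested this way it was the only one past the 95% limit of Dixon's test, and chance alone would put about 1 in 20 past it.

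The Din-KO over WT difference of Wnt7b ran in opposite directions in 2 classes. The log2 ratio of group means was 2.21 in epithelium-like cells, where both Din-KO libraries were higher, and −0.880 in dental follicle-like cells, where both were lower, a difference of 3.09 on the log2 scale. This difference between the 2 classes was not tested, and it rests on 68 and 61 UMIs.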

How the results depend on the processing

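Of 185 counts and levels recomputed under an alternative, 183 kept their call or stayed within 1.5 times. These included the genotype counts, with no ligand called in any setting. Levels counted as kept when most ligands kept their highest source class. In cells with at least 3 Xist UMIs and none of the Y-linked genes, 3 ligands rather than 5 were called between epithelium-like and preodontoblast-like cells and 2 rather than 4 between dental pulp-like and dental follicle-like cells, with 5 ligands left to test. Of 479 values of single ligands, 466 kept direction and side of the threshold, 7 lost their call and 5 gained one. The epithelium over preodontoblast difference of Wnt10a ranged from −0.0171 (without WT replicate 2, where it turned sign) to 0.460 (without Din-KO replicate 2) when 1 library was left out, and was called at 0.71 with a resolution of 0.5 (edgeR adjusted p = 0.0395) and at 0.90 without integration (edgeR adjusted p = 0.0102). Preodontoblast over pulp of Wnt5a was called without a filter on low counts (edgeR adjusted p = 0.0468) and without integration (edgeR adjusted p = 0.0409). Preodontoblast over follicle of Wnt7b lost its call without WT replicate 2 (edgeR adjusted p = 0.0948) and without Din-KO replicate 2 (edgeR adjusted p = 0.100), and epithelium over follicle of Wnt7b gained one without WT replicate 1 (edgeR adjusted p = 0.0422). The highest source class of Wnt10a moved from preodontoblast to epithelium at a resolution of 0.5, without integration, with Wnt ligands kept and without Din-KO replicate 2. That of Wnt7b moved from epithelium to follicle in per-cell means, in thinned shares and without Din-KO replicate 1. Wnt10b made the same move in shares of cells and without Din-KO replicate 2. Wnt4, Wnt5a, Wnt6 and Wnt11 kept their highest class in these alternatives. The causes were not tested.

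The labels give WT and Din-KO libraries the same replicate numbers but do not say what a number shares. Deviations of same-numbered libraries from their group means correlated at 0.527 in epithelium, 0.465 in preodontoblast, 0.501 in pulp and 0.606 in follicle. With the replicate number as a block, 0 ligands were called in each class, and the calls over all genes went from 0 to 0, 3, 73 and 67 in the same order. Counts of 10 or fewer UMIs in a class, as for Wnt3, limit what depth can show.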
